A study of Drosophila melanogaster with 20 samples.

Results

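The libraries described here came from marker-negative cells of Drosophila melanogaster embryos, sorted at a late and an early stage of embryogenesis. They were 8 of the 20 small RNA libraries of the series and were chosen by their labels alone. Repo-negative and elav-negative fractions at 18-22 h after egg laying, 2 libraries each, were compared with the same fractions at 6-8 h, so that 4 late libraries stood against 4 early ones. Repo is a homeodomain transcription factor of glia, and elav is an RNA-binding protein of neurons. By the aim of the sort, the repo-negative fraction keeps the neurons and loses glia, while the elav-negative fraction keeps glia and loses neurons. Both fractions are meant to keep the other tissues of the embryo, among them muscle, epidermis, gut, fat body and hemocytes. Per the labels' protocols, single cells from dissociated embryos were fixed in 4% formaldehyde, sorted by antibody staining, and read from 1 end for 51 bases. The labels name no genotype, strain or transgene, and the 2 libraries of each group are said to be biological duplicates. The source field of these libraries names the cell type of the sort (enriched glia for the repo sort, for example), while titles and sorting fields call them negative.

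MicroRNAs are short RNAs cut from hairpin precursors, and they lower the output of mRNAs that carry matching sites. In the fly embryo some hairpins are transcribed as soon as the zygotic genome becomes active and clear maternal mRNAs, while others are switched on as muscle, gut or nerve cells differentiate. The early stage falls in the period when neuroblasts divide and segments form, and the late stage just before hatching, when organs have formed and cuticle is laid down. Counts were read per hairpin, so the arms of a precursor were not separated. Values are CPM, the hairpin counts of a library scaled to a common total with TMM factors from the hairpin rows alone, and a change is a log2 fold change of late over early with its standard error.

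Total counts ranged from 6863042 to 18132980 per library, and counts on hairpins from 199947 to 2550610. Elav-negative replicate 2 of 6-8 h held the lowest hairpin count, which was 2.09% of its counts against 12.6 to 21.8% in the other 7 libraries. That library stood apart from its replicate, with a correlation of log2 CPM of 0.914 over the hairpins, where the other 3 pairs of replicates had 0.974 to 0.987. Its share of counts on snoRNA was 29.3%, against 15.7 to 17.5% in the other early libraries. Where its omission changed a call or moved a value widely, the value without it is given too. Fragments of repo were at 4.24 and 3.93 CPM (CPM of the rows other than hairpins) in early and 2.75 and 2.45 CPM in late repo-negative cells. With the scaling taken from all libraries of the repo and elav sorts, positive and negative, repo was at 199 and 223 CPM in early repo-positive cells. It was at 4.70 and 4.46 CPM in early repo-negative cells. On that scale elav stood at 549.5 and 479 CPM in early elav-positive cells, at 43.7 and 46.5 CPM in early elav-negative cells and at 17.1 and 33.9 CPM in late elav-negative cells.

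The hairpin profile changed widely between the stages. Of 237 hairpins, 43 held no count in the 8 libraries and 109 in all were too low to test, which left 128. By edgeR's quasi-likelihood test with the sort as covariate and Benjamini-Hochberg adjustment, 67 of the 128 passed the threshold of 0.05 (52.3%), 37 of them higher late (28.9%) and 30 lower (23.4%). An unadjusted p under 0.05 was reached by 74 (57.8%), and the median log2 fold change over the 128 was 0.0045. The 4 late libraries lay above the 4 early ones for 36 hairpins (28.1%) and below them for 30 (23.4%). All 67 called hairpins had the same sign of change in the repo-negative and in the elav-negative cells when each fraction was taken alone. The calls came from both fractions pooled, which favors a shared sign, so this is a description and no separate support. The balance of calls depended on the scaling: 86.8% of the calls were higher with factors from all rows of the tables (33 higher and 5 lower), and 46.1% with TMM factors that left out the 5 most abundant hairpins, against 55.2% here. With factors from all rows the calls ended for named hairpins that included mir-7, mir-8, mir-92b, mir-124, mir-184, mir-286, mir-305, mir-ban and mir-2b-2, at adjusted p up to 0.464. The alternative factors shifted the median change by 0.35 and by -0.29, and size factors of the RLE kind shifted it by 0.23. In bulk fractions, fewer cells of a type and less RNA per cell cannot be told apart.

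**Figure D1:**
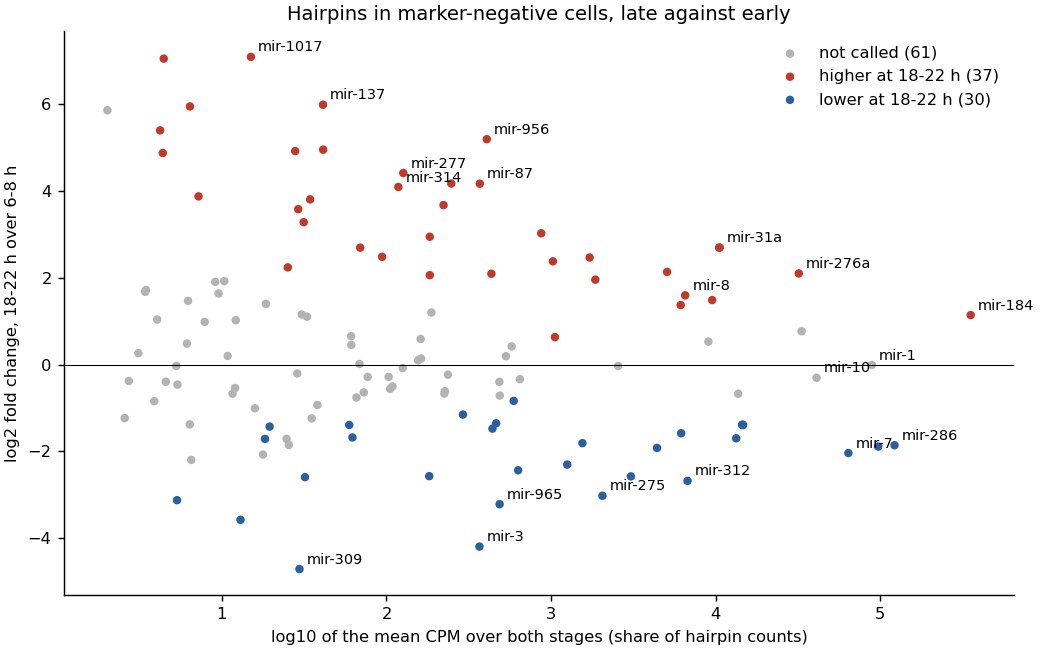
Log2 fold change of each tested hairpin, 18-22 h over 6-8 h (vertical axis), against the log10 of its mean CPM over both stages (horizontal axis), with 1 point per hairpin. Red points are the 37 called higher, blue the 30 called lower and grey the 61 not called; mir-286 and mir-7 lie among the lower hairpins at high abundance, and the steepest increases lie at low abundance.

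The most abundant hairpins changed rank with the stage. At 6-8 h the order by mean CPM was mir-184, mir-286, mir-5, mir-7 and mir-1. At 18-22 h it was mir-184, mir-1, mir-286, mir-276a and mir-5. The hairpin mir-184, known from the female germ line and the early embryo, stood at 165860 and 187280 CPM in early repo-negative, 140200 and 388130 in early elav-negative, 432950 and 341950 in late repo-negative and 682650 and 491250 in late elav-negative cells. Its early and late values overlapped through elav-negative replicate 2 of 6-8 h, which lay above a late library. The log2 fold change was 1.14 ± 0.36 (adjusted p = 0.0181), a call that ended in 6 of the 8 fits without a single library, at adjusted p up to 0.181. Counts on mir-1, the muscle hairpin, ranged from 29580 to 134550 CPM early and from 48270 to 121060 CPM late and overlapped (-0.01 ± 0.44, adjusted p = 0.988). Its sign turned in several alternatives, and without the library that stood apart the change was -0.71 (adjusted p = 0.0569).

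Hairpins of the early zygotic mir-309 cluster were all lower late. Its 8 hairpins lie within the same stretch of chromosome arm 2R, minus strand, from 19660716 to 19661774 (build BDGP6), inside exons of the long noncoding RNA CR44504. The median log2 fold change of the 8 was -1.87 against 0.0045 over all tested hairpins. All 8 were tested and all 8 were called lower, against 23.4% over all tested hairpins. Together they took 44.1% and 44.7% of the hairpin counts in early repo-negative cells, 43.7% and 29.1% in early elav-negative cells, 11.1% and 12.7% in late repo-negative cells and 11.6% and 13.3% in late elav-negative cells. Every early library lay above every late library, and the lowest early share belonged to the library that stood apart. The most abundant member, mir-286, went from 206890 and 217900 CPM (repo-negative) and 196290 and 139790 CPM (elav-negative) to 39279 and 42996 CPM and to 68872 and 63260 CPM. The groups did not overlap, and the change was -1.86 ± 0.31 (adjusted p = 0.00032).

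Members of the cluster did not fall by the same amount. The steepest changes belonged to the rarest members, mir-3 with -4.19 ± 0.51 (adjusted p = 3.37e-05) and mir-309 with -4.71 ± 1.02 (adjusted p = 0.00197). Mean CPM of mir-3 was 691 ± 254 (SD, n = 4 libraries) early and 43.4 ± 27.5 late. The hairpin mir-309 was at 55.7, 84.5 and 87.9 CPM in the early libraries other than elav-negative replicate 2, where it was at 0, and late values were at most 3.56 CPM. The abundant mir-5 (-1.89 ± 0.29) and mir-4 (-1.92 ± 0.30) changed about as mir-286 did. The copies mir-6-1, mir-6-2 and mir-6-3, whose near-identical sequences share reads, each changed by -1.38 or -1.39. All 8 kept a negative sign in each scaling tried, but with factors from all rows only 2 of the 8 were called. Without the library that stood apart all 8 were called.

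**Figure D2:**
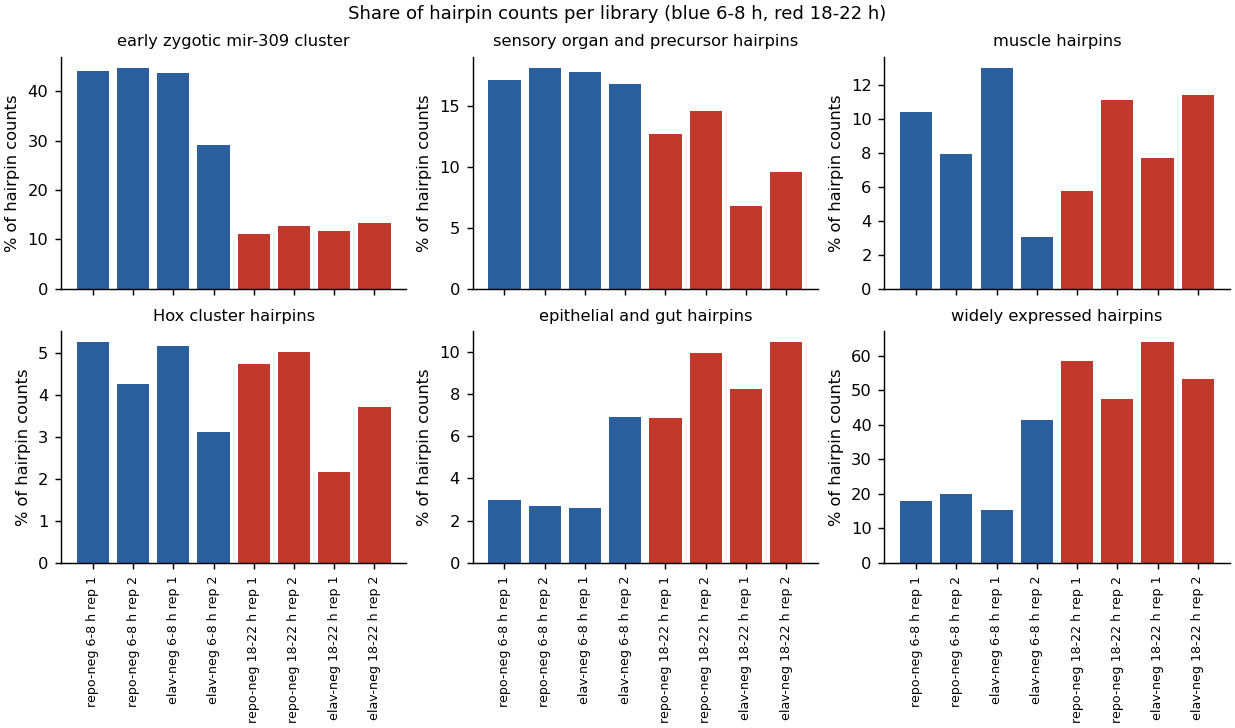
Summed share of hairpin counts (vertical axes, in percent) of 6 lists of hairpins in each of the 8 libraries, with 1 bar per library, blue for 6-8 h and red for 18-22 h. The mir-309 cluster falls from 29.1 to 44.7% to 11.1 to 13.3%, and the widely expressed hairpins, most of which are counts of mir-184, go from 15.3 to 41.3% to 47.5 to 63.8%.

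A second cluster on arm 2R, the mir-310 cluster, was lower late as well. Of its 7 hairpins 5 were tested, 4 were called lower and mir-991 was not called (median -2.43). Over all tested hairpins 23.4% were lower. The leading member mir-312 stood at 11954 and 11576 CPM in early repo-negative and 10616 and 12393 CPM in early elav-negative cells. Late values were 1512.5 and 1446 CPM in repo-negative and 2312 and 2147 CPM in elav-negative cells. No early value came near a late one (-2.68 ± 0.24, adjusted p = 6.03e-06). Its neighbours mir-310 (-2.43), mir-311 (-2.30) and mir-313 (-2.59) changed by similar amounts. The levels of mir-310, mir-311 and mir-312 in the early library that stood apart were close to those of the other 3 early libraries. With factors from all rows none of the 4 was called (edgeR), although each kept a negative sign.

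Neighbouring hairpins were grouped by position. Within 10000 bases on the same strand there were 22 clusters with 77 hairpins, of which 18 had at least 2 tested members. Calls were made in 11 of these 18, and none of the 18 held calls in both directions, although a cluster with 1 called member could not. The pair mir-275 and mir-305 on arm 2L was lower. The cluster of mir-9c, mir-306 and mir-9b was lower, and so was the pair mir-92a and mir-92b on arm 3R. The pairs mir-281-1 with mir-281-2 and mir-1002 with mir-968 were higher. In the mir-277 cluster only mir-277 was called higher, while mir-34 (0.99 ± 0.82, adjusted p = 0.324) and mir-317 (1.93 ± 0.85, adjusted p = 0.0771) did not pass. Uncalled neighbours also went the other way, as mir-318 (1.91) beside mir-994 (-1.43) and mir-996 (-0.56) beside mir-279 (0.63). Clustered hairpins may come from 1 transcript, and the pairs with like sequences share reads, so members of a cluster are not independent measurements.

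Among hairpins of epithelia and gut, 3 of 6 tested were higher and 2 lower late (median 1.18). Over all tested hairpins 28.9% were higher and 23.4% lower. The relative of the vertebrate miR-200 family, mir-8, was at 2691, 2378, 2784 and 5014 CPM early (repo-negative, then elav-negative) and at 6219, 8483, 11671 and 12949 CPM late. All late values exceeded all early ones (1.60 ± 0.25, adjusted p = 0.000248, and 0.057 with factors from all rows). The conserved hairpin mir-31a rose from 2278, 2235, 2192 and 4349 CPM to 10085, 16295, 24883 and 22233 CPM (2.70 ± 0.29, adjusted p = 1.55e-05). Its copy mir-31b on the X chromosome carried nearly the same counts in each library, so the pair cannot be separated. In both mir-8 and mir-31a the early library that stood apart was the highest of the 4 early ones. The hairpin mir-bft (mir-263a), which protects sensory bristles from cell death, overlapped between stages (0.77 ± 0.36, adjusted p = 0.0933).

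The neighbours mir-275 and mir-305 went the other way. Values of mir-275 were 4289, 3440, 3750 and 3123 CPM early and 410, 380, 422 and 596 CPM late. The stages were far apart in each fraction, and the change was -3.02 ± 0.25 (adjusted p = 6.03e-06). For mir-305, known from adult intestinal stem cells, the mean was 646 ± 158 CPM early and 235 ± 62.4 CPM late (-1.48 ± 0.31, adjusted p = 0.00176).

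Hairpins tied to sensory organs and their precursors moved in both directions, as the tested hairpins did as a whole. Of 8 tested 2 were higher and 3 lower (median -0.61), against 28.9% higher and 23.4% lower over all tested hairpins. The hairpin mir-7, which acts on Notch target genes and in photoreceptors, stood at 104070 and 112830 CPM in early repo-negative and 108850 and 76757 CPM in early elav-negative cells. At the late stage it was at 38880 and 39558 CPM in repo-negative but 13462 and 16948 CPM in elav-negative cells. The stages did not overlap (-2.04 ± 0.31, adjusted p = 0.000217), and the late elav-negative libraries lay below the late repo-negative ones. With factors from all rows the list gave 1 higher and none lower, and without the library that stood apart 5 were lower. The late difference of mir-7 between the fractions missed the threshold (-1.37, adjusted p = 0.0854) and was called without the library that stood apart (-1.01, adjusted p = 0.0462). Of the mir-9 family, mir-9b (-1.58 ± 0.26) and mir-9c (-1.70 ± 0.31) were lower late, while mir-9a, which limits the number of sensory organ precursors, did not pass (-0.67 ± 0.28, adjusted p = 0.0621). Called higher were mir-263b (1.49 ± 0.45, adjusted p = 0.0141) and mir-279 (0.63 ± 0.23, adjusted p = 0.0346). The call of mir-279 ended in each of the 8 fits without a single library, and that of mir-263b ended without repo-negative replicate 2 of 6-8 h (adjusted p = 0.0559).

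Among widely expressed hairpins 5 of 7 tested were higher late and none lower (median 1.37), against 28.9% higher and 23.4% lower over all tested hairpins. The hairpin mir-14, which restrains cell death and fat storage, went from 1874 ± 363 to 8249 ± 962 CPM (2.14 ± 0.24, adjusted p = 1.96e-05). Counts of mir-276a, known from memory formation in the adult brain, went from 12015 ± 838 to 51888 ± 7582 CPM (2.10 ± 0.24, adjusted p = 1.96e-05). The bantam hairpin mir-ban, a promoter of growth and survival, went from 3330 ± 698 to 8926 ± 3430 CPM (1.37 ± 0.29, adjusted p = 0.00176), but its call ended without elav-negative replicate 1 of 6-8 h (adjusted p = 0.0678). The list was called higher for 3 hairpins without that library, and for 3 with factors from all rows.

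The steepest increases belonged to hairpins that were rare early. The hairpin mir-956 was at 15.2, 27.7, 30.3 and 0 CPM early and at 531, 703, 868 and 1081 CPM late. The late values were far above the early ones in both fractions (5.20 ± 0.53, adjusted p = 1.55e-05). Its neighbour mir-314, on the opposite strand of arm 3L, went from 13.5 ± 7.47 to 223 ± 120 CPM (4.10 ± 0.46, adjusted p = 1.84e-05). The hairpin mir-277, which acts on the breakdown of branched-chain amino acids, went from 8.02, 11.8, 5.67 and 24.4 CPM to 206, 172, 328 and 257 CPM (4.42 ± 0.47, adjusted p = 1.55e-05). For mir-955 the early libraries were at 0 but for 14.2 CPM in elav-negative replicate 1, and the late ones were at 56.7 to 114.5 CPM (4.96 ± 1.01, adjusted p = 0.00142).

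For some hairpins the early sum was too low for a fitted fold to be read as a size. A single early count of mir-1017 stood against 286 late counts, a ratio of 158 between the CPM values with a 95% counting interval of 28.1 to 6260. For mir-990 the ratio was 67.3 (11.9 to 2680), for mir-971 48.6 (8.49 to 1940) and for mir-968 43.0 (7.50 to 1720), each on 1 early count. No early count and 81 late ones made mir-929 at least 14.9-fold higher late, against a floor of 3 counts over the 4 early libraries. These intervals and the floor cover counting error only.

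Further hairpins with a lower level late were mir-965 (-3.22 ± 0.40, adjusted p = 3.79e-05), mir-92b (-2.58 ± 0.33, adjusted p = 4.36e-05) and mir-995 (-2.57 ± 0.49, adjusted p = 0.00093). All of them fell without overlap of the stages. For mir-965 the early values were 676, 621, 587 and 1647 CPM and the late ones 66.7, 104, 66.3 and 129 CPM. The rare mir-2501 was lower by the same test (-3.58 ± 1.30, adjusted p = 0.0356), with a call that ended without repo-negative replicate 1 of 6-8 h (adjusted p = 0.0687) or elav-negative replicate 1 of 18-22 h (adjusted p = 0.0948). The K-box family shares a seed that matches the K box of Notch target mRNAs. Of its hairpins 1 of 9 tested was lower (mir-2b-2, -1.35 ± 0.31, adjusted p = 0.00275), against 23.4% over all tested hairpins. That count was 0 to 4 in the alternatives, 4 of them without the library that stood apart. The let-7 complex, which marks later stages of the life cycle, was near the detection limit throughout, with at most 0.0090% of the hairpin counts, and neither of its 2 tested hairpins was called (edgeR and DESeq2, 0 each, and 0 at an unadjusted p under 0.05).

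Hox cluster hairpins gave 1 call, and 3 (1 higher and 2 lower) without the library that stood apart. The list held 4 tested hairpins, of which mir-10 (-0.30 ± 0.27, adjusted p = 0.358), mir-iab-4 (-0.76 ± 0.41) and mir-iab-8 (-0.93 ± 0.62) did not pass. Counts of mir-993 were higher (2.06 ± 0.73, adjusted p = 0.0329), at 517 and 411 CPM in late repo-negative and 96.9 and 165 CPM in late elav-negative cells against 37.4, 49.9, 22.7 and 166 CPM early. The early library that stood apart lay among the late elav-negative values, and the call ended without any of the 3 other early libraries (adjusted p up to 0.096). Muscle and gonadal hairpins gave 1 call each. The hairpin mir-133, a muscle hairpin in vertebrates, was higher at 119 and 62.6 CPM in late repo-negative and 15.5 and 26.1 CPM in late elav-negative cells against 0 to 20.1 CPM early (3.28 ± 0.83, adjusted p = 0.00485). The gonadal mir-994 was lower (-1.43 ± 0.56, adjusted p = 0.0486), a call that ended in 5 of the 8 fits without a single library. In the mir-12 cluster none of 3 hairpins was called by edgeR with TMM factors, even before adjustment. There 1 was higher by DESeq2 or with RLE factors, and 1 lower without repo-negative or elav-negative replicate 1 of 6-8 h.

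**Figure D3:**
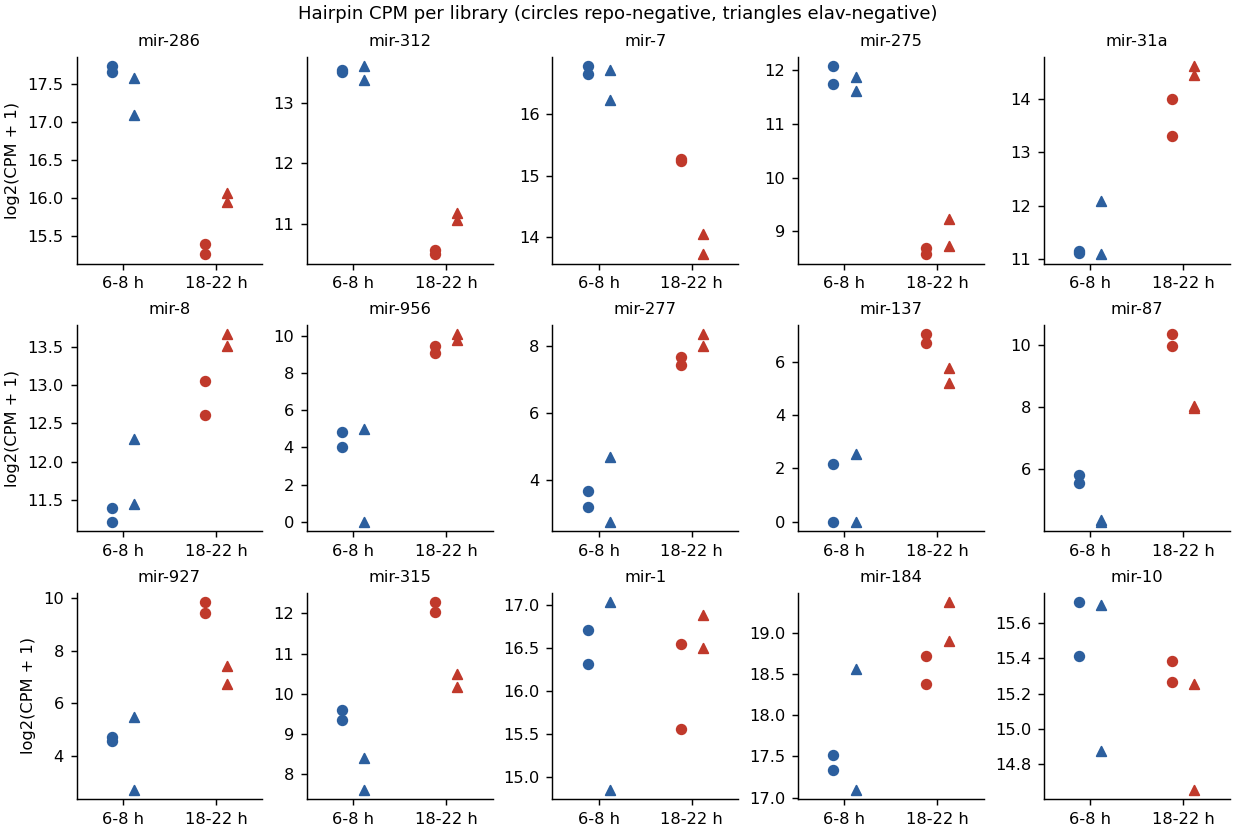
Values of 15 hairpins in each library, as log2(CPM + 1) on axes that differ between panels and do not start at 0, against the stage. Circles are repo-negative and triangles elav-negative libraries; mir-87, mir-927 and mir-315 lie higher in repo-negative than in elav-negative cells late, mir-8 and mir-31a the other way.

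Most nervous system hairpins rose late. Those called had the same sign in the cells sorted to lack neurons, which a call from both fractions pooled favors. The median log2 fold change of the 13 tested was 3.81 against 0.0045 over all tested hairpins. Of the 13, 10 were higher and 1 lower, against 28.9% and 23.4% over all tested hairpins. Their summed share was 0.093% and 0.113% of the hairpin counts in early repo-negative cells and 0.059% and 0.073% in early elav-negative cells. At the late stage it was 0.969% and 0.943% in repo-negative but 0.188% and 0.244% in elav-negative cells. Both late fractions lay above all early libraries, and the repo-negative cells lay above the elav-negative ones. Taken alone, the median change of the list was 4.50 in repo-negative and 2.67 in elav-negative cells.

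The hairpin mir-87, which acts in dendrite regeneration, was at 46.4 and 55.4 CPM in early repo-negative and 18.9 and 19.5 CPM in early elav-negative cells. Late values were 1295 and 1006 CPM in repo-negative and 252 and 260 CPM in elav-negative cells. The change over both fractions was 4.17 ± 0.32 (adjusted p = 4.07e-06). Values of mir-315 were 652, 774, 339 and 195 CPM early, then 4191 and 4990 CPM in late repo-negative and 1153 and 1428 CPM in late elav-negative cells (2.47 ± 0.26, adjusted p = 1.55e-05). Counts of mir-927 stood at 22.7, 25.6, 5.67 and 44.0 CPM early, then at 920 and 686 CPM in repo-negative and 106 and 171 CPM in elav-negative cells (4.18 ± 0.65, adjusted p = 0.000217). In all 3 the late libraries lay above the early ones, and the late repo-negative libraries were highest.

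The same order held for mir-137, a brain hairpin in vertebrates, with 129 and 102 CPM in late repo-negative, 53.4 and 36.2 CPM in late elav-negative and at most 4.89 CPM in early libraries (5.99 ± 0.98, adjusted p = 0.000281). It held for mir-219, a hairpin of myelinating glia in vertebrates (3.81 ± 0.71, adjusted p = 0.000785), and for mir-932, which lies in an intron of a neuroligin gene (4.92 ± 0.98, adjusted p = 0.00119). The hairpin mir-252 stood in another order, with 129 and 123 CPM in late repo-negative and 218 and 167 CPM in late elav-negative cells (2.49 ± 0.41, adjusted p = 0.000281). The neuronal hairpin mir-124 was lower late in both fractions, from 82.0, 97.0, 95.5 and 68.4 CPM to 35.0, 41.0, 29.0 and 27.3 CPM (-1.39 ± 0.38, adjusted p = 0.00769). Not called were mir-957, at 17.5 and 16.6 CPM in late repo-negative and 0.518 and 1.19 CPM in late elav-negative cells, and mir-1000, at 43.4 and 39.6 CPM against 14.5 and 10.1 CPM.

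Tested directly, the fractions differed in few hairpins. At 6-8 h no hairpin passed between elav-negative and repo-negative cells (0 of 128 by edgeR and 2 by DESeq2, while 8, or 6.25%, had an unadjusted p under 0.05). At 18-22 h 3 of 128 passed (2.34%), all lower in elav-negative cells: mir-87 (-2.17 ± 0.33, adjusted p = 0.0121), mir-315 (-1.83 ± 0.33, adjusted p = 0.0191) and mir-276b (-1.52 ± 0.28, adjusted p = 0.0191). The hairpin mir-276b was at 2300 and 2346 CPM in late repo-negative and 869 and 752 CPM in late elav-negative cells, whereas its relative mir-276a was at 42317 and 51396 CPM and at 60791 and 53050 CPM. The change between stages itself differed between the fractions for no hairpin by edgeR or by DESeq2 (0 of 128 each), while 9 (7.03%) had an unadjusted p under 0.05. Among the 13 nervous system hairpins the adjusted p of that difference was at least 0.518.

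These contrasts rested on 2 libraries a group and moved with single libraries. Without the library that stood apart, 17 hairpins passed between the fractions at 18-22 h, 9 lower and 8 higher in elav-negative cells. Among the 9 were 5 of the nervous system list: mir-87, mir-315, mir-219 (-1.59), mir-927 (-2.16) and mir-932 (-2.68), with mir-7 (-1.01) and mir-993 (-1.44) beside them. The 8 higher ones included mir-31a (1.16), mir-8 (1.09), mir-ban (1.03), mir-286 (1.01) and mir-3 (1.90). The same number, 17, passed without the other early elav-negative library. Without repo-negative replicate 2 of 6-8 h or any of the 4 late libraries none passed. For the stage change, 22 hairpins passed without elav-negative replicate 1 of 6-8 h and 1, mir-955, without replicate 2. In those fits the remaining early elav-negative library was assumed to vary as the other groups did.

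**Figure D4:**
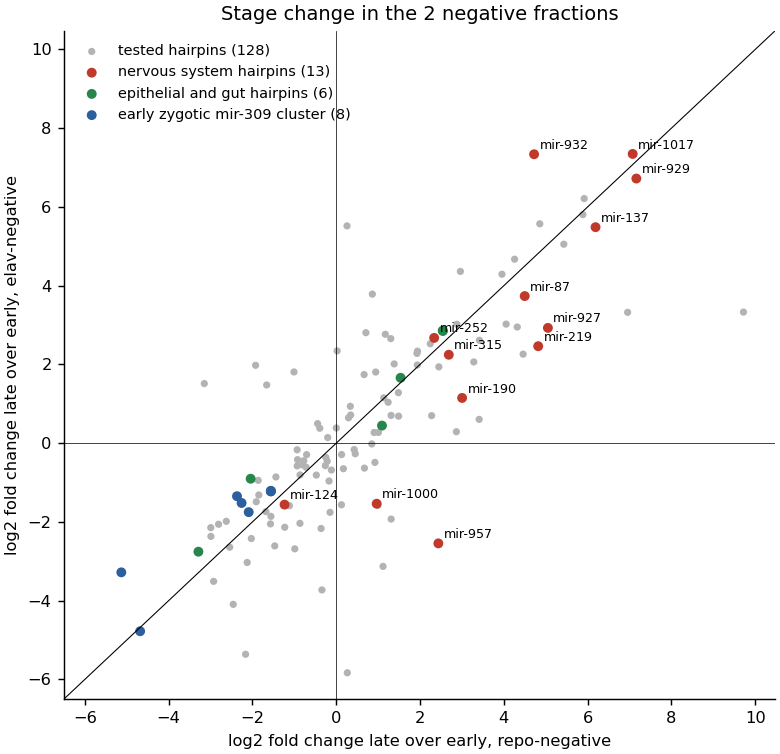
Log2 fold change late over early in elav-negative cells (vertical axis) against that in repo-negative cells (horizontal axis) for the 128 tested hairpins, with the line of equal change. Red points are nervous system hairpins, 10 of 13 of them on the side of the larger change in repo-negative cells, green points epithelial and gut hairpins and blue points the mir-309 cluster; the values of all 128 correlate at 0.789 (Pearson, over hairpins of the same libraries).

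Gene rows other than hairpins were read for genes known from given tissues. These rows were scaled on their own, in CPM of the rows that are no hairpin and share no exon with any, and they are short fragments of fixed, size-selected RNA that stand for no measured mRNA level. Of 10384 rows tested 3196 were called (30.8%), 1878 higher late (18.1%) and 1318 lower (12.7%), with a median change of 0.028, and 4335 (41.7%) had an unadjusted p under 0.05. Scaled on total counts alone, without factors, the split turned to 1381 higher and 2025 lower, 40.5% higher against 58.8% here, and the median moved by -0.33. Among protein-coding rows 17.4% were higher and 13.3% lower. The largest increases among protein-coding genes that averaged 20 CPM or more in a stage and did not overlap between stages were nur (7.22 ± 0.80), CG14756 (7.02 ± 0.81) and CG13159 (6.53 ± 0.93). The largest decreases belonged to Brd (-4.78 ± 0.44) and CG4440 (-4.77 ± 0.35). With Brd fell BobA (-3.49 ± 0.43), both of the Bearded family of Notch pathway antagonists, and sca (-3.41 ± 0.38), which encodes a secreted protein of neural patterning.

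Collagen and hemocyte genes rose together. Hemocytes are the blood cells of the fly and lay down basement membrane. Of 9 tested genes of the list 5 were higher and none lower (median 2.33 against 0.028 over all rows). Over all rows 18.1% were higher and 12.7% lower. The collagen IV chain Col4a1 went from 18.4, 30.3, 27.5 and 75.9 CPM early to 2198, 1046, 2422 and 1341 CPM late (5.61 ± 0.43, adjusted p = 2.38e-06). The second chain, vkg, moved with it (5.38 ± 0.46, adjusted p = 6.03e-06), as did the peroxidasin gene Pxn (3.58 ± 0.40) and Glt, which encodes a basement membrane protein (5.36 ± 0.45). The bridging gene NimB4 of phagocytosis was also among the 10 steepest increases (5.85 ± 0.61). The lineage regulators srp (0.09 ± 0.28) and ush (-0.40 ± 0.28) did not pass.

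Muscle genes rose for the contractile apparatus and fell for the regulators. Of 14 tested, 10 were higher and 2 lower (median 3.35), against 18.1% higher and 12.7% lower over all rows other than hairpins. Fragments of Mhc, the muscle myosin heavy chain, were at 6.91, 11.4, 7.76 and 23.2 CPM early and at 262, 180, 233 and 171 CPM late (4.13 ± 0.37, adjusted p = 6.92e-06), with similar values in both late fractions. Higher too were Mlc1 (4.57 ± 0.45), Prm (3.91 ± 0.30), bt (3.71 ± 0.31) and sls (2.46 ± 0.30), which encode a myosin light chain, paramyosin and giant sarcomere proteins. Lower were the transcription factors Mef2 (-1.29 ± 0.24, adjusted p = 0.00111) and twi (-2.61 ± 0.72, adjusted p = 0.0138). The call of twi ended without replicate 2 of either early fraction. Also lower was lmd, a regulator of myoblast fusion (-3.46 ± 0.63, adjusted p = 0.00104).

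Genes of cuticle, gut and fat body were called mostly higher. Of 123 cuticle protein genes 40 passed the filter, and 31 of these were higher and none lower; a gene silent early could pass that filter only through the late libraries, so these counts are a description. TwdlF was at 0 to 2.69 CPM early and at 21.8 to 46.1 CPM late (4.56 ± 0.56, adjusted p = 6.12e-05). Over all rows other than hairpins 18.1% were higher and 12.7% lower, beside which each list here is to be read. In the list of epidermis and trachea 5 of 15 were higher and 2 lower, with a median of -0.37. Higher were, among others, the chitin synthase kkv (3.02 ± 0.45) and the chitin deacetylases serp (2.86 ± 0.35) and verm (2.65 ± 0.31). Lower were grh (-1.47 ± 0.31) and Mcr (-0.92 ± 0.31). The call of Mcr ended in 5 of the 8 fits without a single library, and its change was -0.48 without the library that stood apart (adjusted p = 0.115). Of 6 gut genes 4 were higher, among them the midgut factor GATAe (3.67 ± 0.32, adjusted p = 6.23e-06). The hindgut factor byn was lower (-2.52 ± 0.69, adjusted p = 0.0129). Of 5 fat body genes 3 were higher, with the lipoprotein apolpp going from 55.9 to 152 CPM early to 638 to 836 CPM late (3.20 ± 0.31, adjusted p = 9.87e-06). Of 10 ecdysone genes 4 were higher and 1 lower, and ftz-f1, a nuclear receptor expressed after the hormone pulse, led them (3.95 ± 0.28, adjusted p = 1.83e-06).

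Genes of patterning and division fell. The shares over all rows other than hairpins were 12.7% lower and 18.1% higher, beside which each list here is to be read. Of 15 segmentation genes 9 were lower and none higher (median -1.66), among them odd (-3.67 ± 0.59), slp2 (-2.92 ± 0.45) and Kr (-2.17 ± 0.35). Of 15 cell cycle genes 10 were lower and none higher (median -1.63), among them the replication helicase subunit Mcm7 (-2.50 ± 0.30, adjusted p = 5.38e-05) and the mitotic cyclin CycA, which went from 60.5 to 96.4 CPM early to 20.3 to 28.6 CPM late. Of 10 neuroblast genes 7 were lower and none higher, with mira, the adaptor that segregates fate determinants, at -2.01 ± 0.27 (adjusted p = 9.81e-05) and l(1)sc at -4.61 ± 0.79. The call of pros (-0.71 ± 0.26, adjusted p = 0.0484) ended in each of the 8 fits without a single library. Of 111 histone genes 8 passed the filter and were lower, but 7 of them are copies of a single gene with the same counts, and 1 call was left in 6 of the 8 fits without a single library. Among 8 Hox genes Ubx, abd-A and Abd-B were lower, but 1 was called without elav-negative replicate 1 of 6-8 h or repo-negative replicate 1 of 18-22 h, and none without either late elav-negative library (edgeR). Germ cell genes gave no call (edgeR and DESeq2, 0 of 8 each, with piwi alone at an unadjusted p under 0.05).

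**Figure D5:**
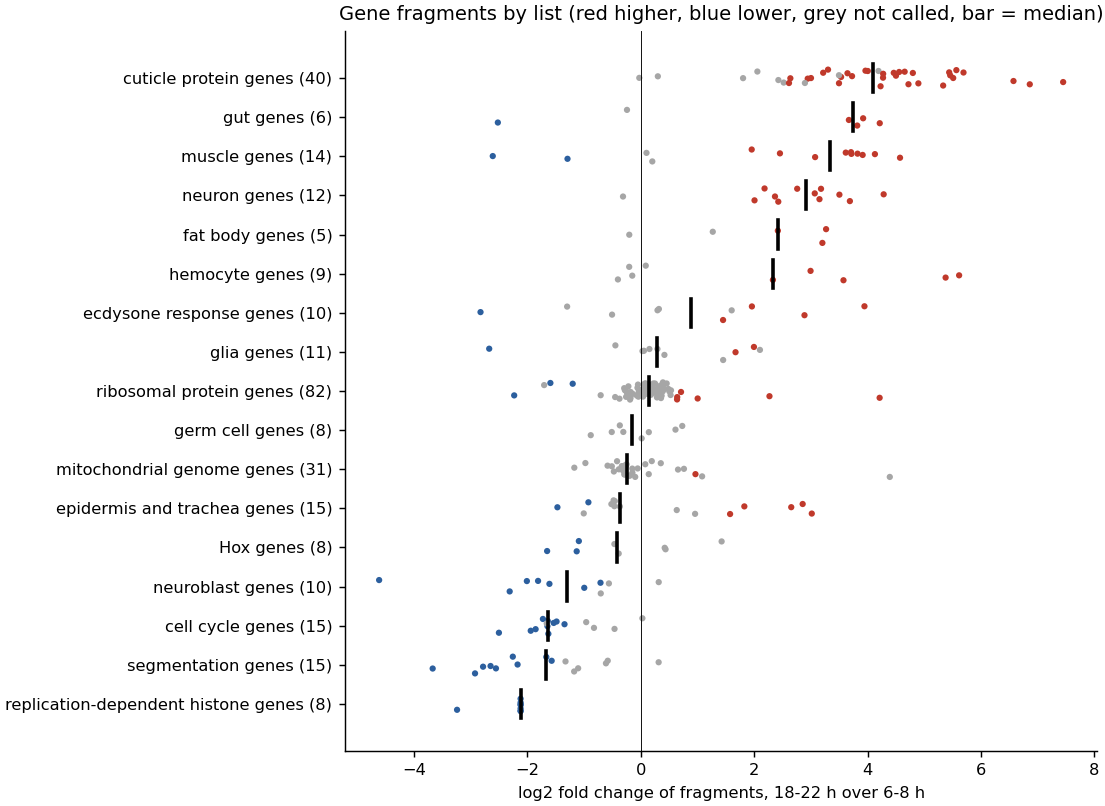
Log2 fold change of fragments, 18-22 h over 6-8 h (horizontal axis), for the tested members of 17 gene lists (vertical axis, number tested in brackets), with 1 point per gene and a bar at the median. Red points were called higher, blue lower and grey not called; cuticle, gut, muscle and neuron lists lie to the right and segmentation, cell cycle and histone lists to the left.

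Neuron genes rose late over both fractions, and the late level was highest in the repo-negative fraction. Of 12 tested 11 were called higher over both fractions and none lower (median 2.91), against 18.1% and 12.7% over all rows. Their summed level was 92.0 and 105 CPM in early repo-negative and 58.9 and 58.4 CPM in early elav-negative cells. Late, it was 518 and 444 CPM in repo-negative and 65.1 and 99.8 CPM in elav-negative cells, and these elav-negative sums lay within the early range. The sum includes elav itself. With the scaling from all libraries of both sorts, elav went from 43.7 and 46.5 to 17.1 and 33.9 CPM in elav-negative cells. Within each fraction, the median change of the 12 genes was 3.60 in repo-negative and 1.64 in elav-negative cells. The synaptic vesicle gene nSyb was at 22.1 and 21.8 CPM in late repo-negative, at 0.992 and 1.24 CPM in late elav-negative and at most 0.848 CPM in early libraries (4.28 ± 0.66, adjusted p = 0.000305). Fragments of elav itself did not pass (-0.31 ± 0.29, adjusted p = 0.436). They stood at 67.8 and 77.3 CPM in late repo-negative and at 15.0 and 30.6 CPM in late elav-negative cells. None of the 12 genes was at 0 in a late elav-negative library, and the part of remaining neurons in the rise of the nervous system hairpins there was not tested.

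Between the late fractions 20 of 10384 rows passed (0.193%), 19 lower in elav-negative cells (0.183%) and 1, the transcription terminator gene lds, higher (0.00963%), with 901 (8.68%) at an unadjusted p under 0.05. Between the early fractions 2 passed (0.0193%), both snoRNA genes that were higher in elav-negative cells, with 794 (7.65%) before adjustment. The change between stages differed between the fractions for 1 row (0.00963%), snoRNA:U49:66Db, with 926 (8.92%) before adjustment, and for none of the 12 neuron genes (edgeR, adjusted p of at least 0.0956). The contrasts between fractions at each stage were added after values had been seen, and no alternative was run for them. The neuron genes nSyb (-4.29), cac (-3.48), Syt1 (-3.14), brp (-2.93) and fne (-2.67) were among the 19, with Rdl (-3.78), nAChRalpha5 (-2.96) and nAChRalpha6 (-2.92), which encode transmitter receptors and were picked after their values were seen. No muscle, hemocyte, gut, fat body or cuticle gene of the lists passed between the late fractions by that test. Of 11 glia genes 2 were higher late and 1 lower, close to the shares over all rows other than hairpins (18.1% higher and 12.7% lower). Higher were alrm and axo, with none called without elav-negative replicate 1 of 6-8 h. Each of these 2 calls also ended without other single libraries. Lower was gcm, the early switch of glial fate (-2.67 ± 0.51, adjusted p = 0.00153). Summed glia genes ranged from 69.2 to 112 CPM early and from 83.6 to 95.5 CPM late, and repo stayed low in each of the 8 libraries, at 2.45 to 6.00 CPM.

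Other small RNA classes were counted too. Called higher were 98 of 261 tRNA rows (37.5%) and 82 of 251 snoRNA rows (32.7%), against 4 and 1 lower. Over all rows other than hairpins 18.1% were higher and 12.7% lower. The median changes were 0.956 for tRNA and 0.485 for snoRNA rows, while scaling without factors moved the median of all these rows by -0.33. Reads were shared fractionally among places, so rows of like copies are not independent. Of 31 snRNA rows 6 were higher and 9 lower. The share of counts was compared for 8 classes by an exact two-sided permutation test over the 70 splits, whose smallest p, 0.0286, could not pass the adjustment for a single class. Mitochondrial rows reached it (adjusted p = 0.229), with separate ranges of 1.44 to 1.74% late and 2.21 to 2.68% early. Hairpins took 13.89 ± 0.95% of counts late and 13.95 ± 8.38% early (SD, n = 4), and rRNA 36.07% and 35.15%. Without the library that stood apart the difference late minus early was -4.02 percentage points for hairpins, 3.47 for rRNA and 2.26 for snoRNA, against -0.067, 0.922 and -0.855 with it. Of 82 ribosomal protein genes 6 were higher and 3 lower (median 0.15), a count of higher ones that was 2 without elav-negative replicate 2 of 18-22 h, 3 without each of repo-negative replicate 2 of 6-8 h, elav-negative replicate 1 of 6-8 h and repo-negative replicate 1 of 18-22 h, and 2 (with 7 lower) without scaling factors. Summed ribosomal protein genes were at 41413 and 66491 CPM in replicate 2 of the late repo-negative and elav-negative cells and at 14651 to 16296 CPM elsewhere. Among them RpL28 was at 8595 and 17796 CPM in these libraries and at 200 to 911 CPM elsewhere. Of 31 genes of the mitochondrial genome 1 was higher, mt:tRNA:Lys-CTT, a call that ended in 5 of the 8 fits without a single library. Without the library that stood apart none was higher and 1 lower (edgeR), and without scaling factors 10 were lower.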

How the data were processed

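Small RNA libraries of sorted, fixed embryo cells were counted per gene by the authors with featureCounts 1.5.1 on exons of Ensembl release 85, stranded, with reads shared fractionally among places and features, per the file headers. The deposited values are thus expected counts, and 43.3% of the hairpin values of the 8 libraries were not whole. Bowtie 1.1.2, SAMtools 1.8, DESeq2 and the builds BDGP6 and dm6 are named in the submitters' processing notes. Counts were rounded to whole numbers. Of 17559 features 17253 matched a gene name in an Ensembl release 115 table, and 306 did not. Hairpins (237, 73 of which share an exon with another gene) and the other 17263 rows were fitted apart, and 59 rows that share an exon with a hairpin were left out. Filtering (edgeR's filterByExpr, minimum count 10), TMM factors and the quasi-likelihood test were from edgeR 4.0.16 in R 4.3.3 (limma 3.58.1 loaded), with Benjamini-Hochberg adjustment at 0.05. Late against early had the sort as covariate (5 residual degrees of freedom), and contrasts between sorts used the 4 groups (4 degrees). Class shares were compared by an exact permutation test (Python 3.11.15, scipy 1.17.1). DESeq2 1.42.0, other scalings, no filter, all 20 libraries, a replicate block and leaving out each library were alternatives. Scripts were tested on simulated data. Depth ranged from 6863042 to 18132980 counts, and intervals cover counting error only. Hairpins named by rule were the 12 steepest called in each direction whose stages did not overlap and whose mean was at least 10 CPM in the higher stage, and genes the 10 steepest protein-coding ones with at least 20 CPM. Members of the lists, the 5 most abundant hairpins of a stage and the sort markers were named beside them. The members and lists were chosen with earlier results of these data known. The contrast of other rows between sorts was added to the design later. Within a sort, early and late libraries of the same number did not deviate together. Between the sorts no such check was made. At 18-22 h the snoRNA share of counts was higher in replicate 2 than in replicate 1 of both fractions. It was 21.2% against 16.5% in repo-negative and 21.9% against 16.8% in elav-negative cells. Summed ribosomal protein genes were at 41413 and 66491 CPM in replicate 2 (repo-negative, then elav-negative) and at 15397 and 15997 CPM in replicate 1. TMM factors of the other rows were 0.852 and 0.746 in replicate 2 and 0.995 and 0.993 in replicate 1. Fragments of nur were at 171 and 501 CPM in replicate 2 and at 684 and 1355 CPM in replicate 1. The fit of late against early took these libraries as independent. An effect shared by late libraries of the same number was not tested. No sequence is printed, as none was used here.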

Additional observations from a re-analysis of the deposited data

Results flagged for a closer look

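Several early values stood far from the other 3 early libraries, among 78 groups of 4 libraries examined, 10 of which held such a value. The nominal rate of about 1 in 20 groups holds for normal values and independent groups. These groups share libraries, and where 3 libraries were at 0 any single value was flagged whatever its size. The 10 are thus no measure of an excess. In elav-negative replicate 2 of 6-8 h the snoRNA share was 29.31% against 15.67 to 17.51%. In the same library mir-2501 was at 73.3 CPM against 4.85 to 11.1 CPM, mir-92b at 8596 CPM against 3844 to 4312 CPM and mir-965 at 1647 CPM against 587 to 676 CPM. It was low for mir-5, at 113280 CPM against 163190 to 168090 CPM, and for mir-995, at 78.2 CPM against 374 to 416 CPM. A single early library held the counts of mir-955 (14.2 CPM, elav-negative replicate 1), mir-932 (6.69 CPM, repo-negative replicate 1), mir-990 (0.446 CPM, repo-negative replicate 1) and mir-1017 (0.693 CPM, repo-negative replicate 2), while the other 3 were at 0.

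The change between stages of snoRNA:U49:66Db differed between the fractions by -4.001 on the log2 scale, elav-negative minus repo-negative (edgeR, adjusted p = 0.0279). It stood at 199 and 405 CPM in early repo-negative cells and between 4339 and 7579 CPM in the other 6 libraries.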

How the results depend on the processing

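Late against early, 67 hairpins were called, 60 to 79 when a library was left out (79 without elav-negative replicate 2 of 6-8 h, 66 of them shared), 38 with factors from all rows and 63 with the replicate block. For other rows the count stayed within 1.5 times of 3196 and was 2669 with the block. Within a sort, early and late libraries of the same number did not deviate together (correlations of -0.127 and 0.128 for hairpins), and crossing the repo numbers gave 67. Between the sorts this was not checked. A block by number across the sorts, fitted for hairpins only, left 0 calls at 6-8 h and 3 at 18-22 h. Between the fractions at 6-8 h no hairpin was called, against 2 with DESeq2, 4 without a filter and 0 to 21 without a library. At 18-22 h the 3 calls became 6 with DESeq2, 10 without a filter, 0 with factors from all rows and 0 to 17 without a library. The difference of the stage change gave 0 hairpins, 3 without a filter and 0 to 22 without a library, and 1 other row, 43 with DESeq2, 94 without a filter, 0 with all 20 libraries, 0 with the replicate block and 0 to 70 without a library. No called hairpin or gene named here changed sign in the alternatives run, whereas uncalled ones near 0, such as mir-1 and srp, did; the causes were not tested. Groups of 2 libraries and the low hairpin depth of elav-negative replicate 2 of 6-8 h limit contrasts between fractions.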
